A study of Mus musculus with 12 samples.

Results

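The DNA replication machinery is described here through 44 mouse genes taken by name from a fixed list. They cover origin recognition and licensing, the MCM helicase and its activators, the replicative polymerases and primase, the sliding clamp and its loader, single-strand binding and Okazaki fragment joining, nucleotide supply, chromatin assembly behind the fork, and the regulators E2f1, Ccne1 and Ccne2. All 44 had a probe on the array, and 43 of them passed the filter on dim probes, out of 13736 genes tested. RNA came from RAW264.7, a mouse macrophage line transformed by a murine leukaemia virus, which divides in culture without added growth factors and so differs from most resident macrophages. Of the 4 groups, each with 3 arrays, NS and HS had no LPS, and NS + LPS and HS + LPS received it. HS was read from the series title as high salt, 40 mM NaCl added to the medium, and NS as the same culture without it. LPS (lipopolysaccharide, the bacterial outer membrane molecule that binds TLR4) was given at 10 ng/ml, and cells were taken at 24 h. Whether replicates came from separate cultures is not given in the labels, and the p-values rest on a spread among arrays that could be purely technical.

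In G1 the origin recognition complex, Cdc6 and Cdt1 load the ring-shaped MCM helicase onto origins in an inactive form. At the start of S phase Cdc45, the GINS complex and Mcm10 turn it into the moving helicase, DNA polymerase alpha with primase lays the primers, replication factor C loads the clamp PCNA, and polymerases epsilon and delta copy the strands. Many of these genes are transcribed late in G1 through E2F factors, so that their mRNAs are abundant in dividing cells and scarce in resting ones, and LPS is known to slow the growth factor driven division of macrophages.

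Promoter sequences are shown for the members with the largest called differences between HS + LPS and NS + LPS, Cdc6 and Rfc3 on the lower side and Pcna and Ccne1 on the higher side, because E2F-type elements in such promoters are the textbook link between these genes. Each line is RefSeq sequence of build GRCm38.p6 from 150 bases before to 30 bases after the annotated start, read 5′ to 3′ on the gene's strand, with capitals for a match to TTTCCCGC, TTTGGCGC, TTTCGCGC or TTTGCCGC on either strand.
Cdc6: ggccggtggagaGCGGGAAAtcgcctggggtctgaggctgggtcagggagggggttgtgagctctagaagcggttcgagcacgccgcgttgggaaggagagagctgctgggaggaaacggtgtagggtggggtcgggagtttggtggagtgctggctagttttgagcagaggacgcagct
Rfc3: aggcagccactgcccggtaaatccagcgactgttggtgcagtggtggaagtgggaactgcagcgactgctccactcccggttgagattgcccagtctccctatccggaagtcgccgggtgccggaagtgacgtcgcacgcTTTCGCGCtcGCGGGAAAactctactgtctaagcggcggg
Pcna: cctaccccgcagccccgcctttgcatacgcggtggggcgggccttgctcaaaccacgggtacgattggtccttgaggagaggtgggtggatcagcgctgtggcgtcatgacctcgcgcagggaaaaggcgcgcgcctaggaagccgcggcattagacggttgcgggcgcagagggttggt
Ccne1: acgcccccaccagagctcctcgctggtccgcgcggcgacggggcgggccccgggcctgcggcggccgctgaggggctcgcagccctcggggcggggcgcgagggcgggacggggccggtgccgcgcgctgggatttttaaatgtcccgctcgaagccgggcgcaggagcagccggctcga
The Cdc6 window (chr11:98908001-98908180, plus strand) held 1 match and the Rfc3 window (chr5:151651179-151651358, minus strand) held 2. The windows of Pcna (chr2:132253151-132253330, minus strand) and Ccne1 (chr7:38107461-38107640, minus strand) held none, which says only that these letters are not in these windows.

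RefSeq promoters of 300 bases were matched for 36 of the 44 members, with 41 entries in all. Gins1, Gins2, Gins4, Mcm4, Prim2, Pole, Rfc2 and Ccne2 had no entry. A match to any of the 4 motifs was present in 34.1% of the member promoters, in 3.7% of the 12261 promoters of genes tested and in 2.3% of all 32851 promoters of that length. The genes with a match were Orc1, Cdc6, Cdt1, Mcm3, Mcm5, Mcm6, Mcm7, Gins3, Pola1, Pole2, Pold1, Rfc3, Lig1 and Uhrf1. Mcm6, with 3, had the most matches, some of which overlap since the reverse complement of TTTCGCGC shares bases with TTTGGCGC. The CCAAT box was present in 56.1% of member promoters and 37.9% of promoters of genes tested. These shares describe the sequences and no test was run on them.

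Signal is given below as a multiple of the array's 75th percentile, so values compare arrays for 1 probe and never 1 probe with another, and differences between groups are on the log2 scale. The 75th percentile itself was 724.8 ± 74 in NS, 634.2 ± 21.5 with salt, 628.3 ± 6.84 with LPS and 428.4 ± 15.3 with both (scanner units, mean ± SD, n = 3). One slide carried every NS and HS array together with the first 2 replicates of NS + LPS. The third NS + LPS array came from a second slide scanned that same day. A further slide, scanned later, held the HS + LPS group alone, so that differences involving this group cannot be told apart from slide or scan day and have no value within a slide. Of 9 macrophage markers 8 were well above background on all 12 arrays, and Mrc1 on none. Of markers of other cell types, 0 of 4 epithelial genes were above background on any array, and Ms4a1, Cd3g, Pdgfra and Tek were at background on all 12, while Cd3e, Cd4, Cd79b, Kdr and Pecam1 were above it on all 12. In a bulk culture fewer cells in a phase of the cycle and less RNA per cell cannot be told apart.

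**Figure D1:**
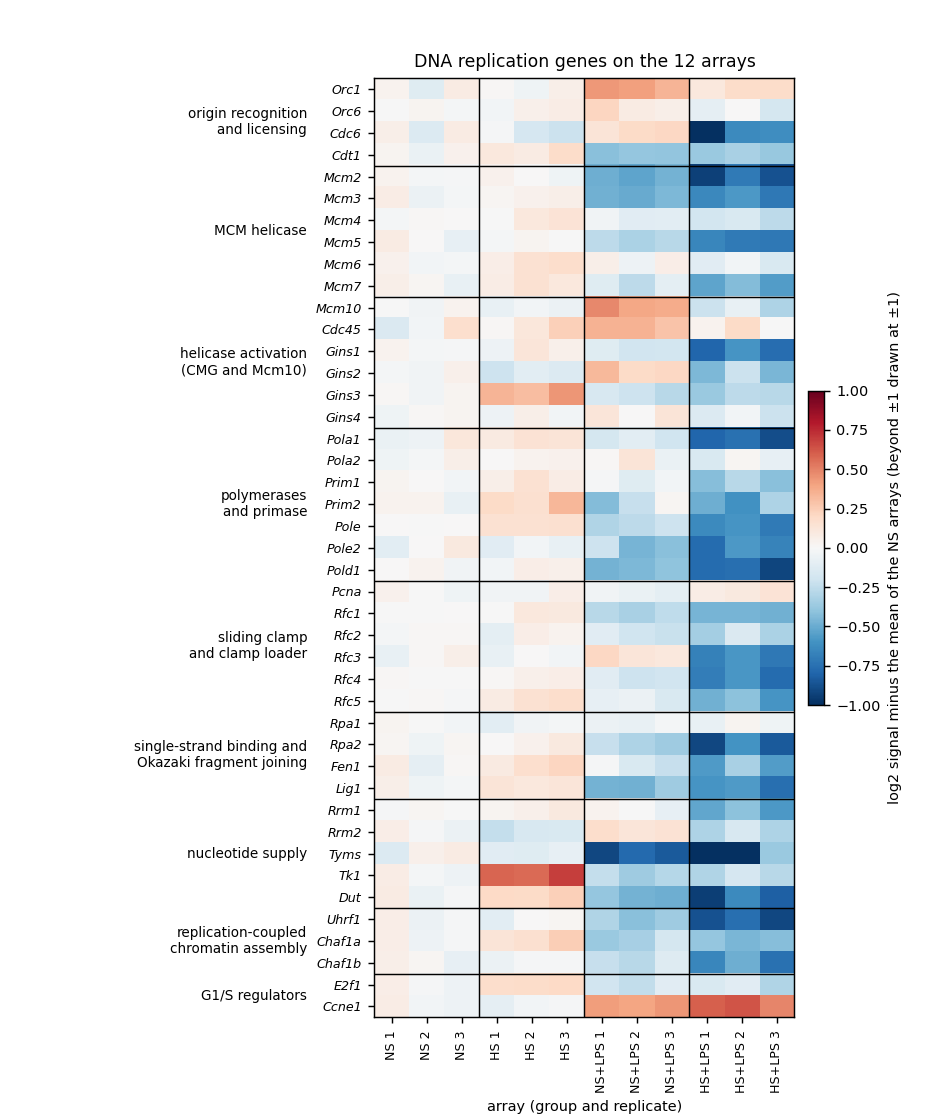
Log2 signal of the 43 measured replication genes on each of the 12 arrays, minus the gene's mean on the 3 NS arrays, with genes in rows by role and arrays in columns by group (blue lower, red higher, values beyond 1 drawn at 1). The HS + LPS columns are the bluest, with a median over genes of -0.60 against HS, while Ccne1, Orc1 and Pcna are on the red side there.

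Added salt without LPS, the comparison of HS with NS, moved few replication genes. Of the 43 measured, 7 rose and 1 fell, while 18.3% of all genes tested were called higher and 19.0% lower (37.3% in all), so the share that rose was near the background. Tk1, the cytosolic thymidine kinase of the salvage pathway, rose 1.53-fold and Gins3, a subunit of the helicase activator GINS, rose 1.29-fold. Dut, E2f1, Chaf1a, Pole and Cdt1 rose by log2 differences of 0.12 to 0.21, and Rrm2, the small subunit of ribonucleotide reductase, fell 1.14-fold. The median difference over the members was 0.041, against 0.017 over all genes, and the values ran from -0.18 to 0.62. The HS arrays lay wholly above the NS arrays for 15 members and wholly below for 2, against 25.8% and 24.8% of all genes. Genes were called with limma's moderated test at a Benjamini-Hochberg adjusted p under 0.05 over all 13736 genes. The count of 7 fell to 3 without NS replicate 2 or HS replicate 3 and to 4 without HS replicate 2, with Tk1, Gins3 and Pole called whichever array was left out. Dut, E2f1, Chaf1a and Cdt1 each lost their call without at least 1 array, for Cdt1 with values down to 0.091 (without NS replicate 2). Over all alternatives run, Cdt1 lost its call in 12 of 18, Dut in 9 of 19, Chaf1a in 8 of 18 and E2f1 in 5 of 18. The call of Rrm2 ended without NS replicate 1 or HS replicate 1, and with cyclic loess normalization 4 were called higher and 3 lower.

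LPS without added salt, NS + LPS against NS, lowered more replication genes than it raised. Of the 43 measured, 23 fell and 7 rose, against 35.2% and 28.7% of all genes (63.9% in all). Tyms, the thymidylate synthase, fell 1.80-fold, and the helicase subunits Mcm2 and Mcm3 fell 1.41-fold and 1.39-fold. The genes that rose included Ccne1, which codes for cyclin E1 (1.34-fold), Mcm10 (1.33-fold), Orc1 (1.31-fold) and Cdc45 (1.25-fold). Gins2 rose as well (0.24), as did Rrm2 (0.15) and Rfc3 (0.15), the call of Rrm2 ending without NS replicate 2 (0.14) or 3 (0.12) or NS + LPS replicate 1 (0.13) or 3 (0.15) and that of Rfc3 without NS replicate 1 (0.11) or 2 (0.15) or NS + LPS replicate 1 (0.11). The median over the members was -0.16, against -0.034 over all genes, with a range of -0.84 to 0.42. The groups did not overlap for 25 members lower and 9 higher, against 38.1% and 31.6% of all genes. On the slide that holds all NS arrays and NS + LPS replicates 1 and 2, 21 were called lower and 6 higher.

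With added salt on top of LPS, HS + LPS against NS + LPS, most members of the machinery were lower. The HS + LPS arrays had their own slide and scan day, from which this difference cannot be told apart. Of the 43 measured, 29 fell and 2 rose, against 31.4% and 26.2% of all genes (57.6% in all), and every role except the G1/S regulators had members that fell. The licensing factor Cdc6 fell 1.91-fold by the probe used for it, and the clamp loader subunit Rfc3 fell 1.74-fold. The catalytic subunit of polymerase alpha, Pola1, fell 1.57-fold, and Gins2 and Mcm10 fell 1.53-fold each. The clamp Pcna rose 1.13-fold and Ccne1 1.11-fold, a count of 2 that became 1 when replicate 1 or 2 of either group was left out. The median over the members was -0.31, against -0.043 over all genes, with a range of -0.93 to 0.17. The HS + LPS arrays lay wholly below the NS + LPS arrays for 31 members and wholly above for 3, against 35.1% and 29.2% of all genes. The HS + LPS arrays were also the dimmest, and 45.03 ± 0.511% of their probes were well above background against 48.64 ± 2.42% in NS + LPS (mean ± SD, n = 3). The part of that difference in the result was not tested. The 12 members that were not called were Cdt1, Mcm4, Mcm6, Gins3, Pola2, Prim2, Rfc2, Rpa1, Tyms, Tk1, Chaf1a and E2f1.

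In salt medium the LPS comparison, HS + LPS against HS, gave the largest share of lower members. It too cannot be told apart from the slide and scan day of the HS + LPS arrays. Of the 43 measured, 34 fell and 3 rose, against 41.8% and 30.5% of all genes (72.3% in all). Dut, the dUTPase that keeps uracil out of DNA, fell 2.01-fold, Tyms 1.93-fold and Pola1 1.90-fold, while Ccne1 rose 1.54-fold, Orc1 1.11-fold and Pcna 1.08-fold. The calls of Orc1 and Pcna ended, leaving a count of 1, without HS replicate 1 or 2 or HS + LPS replicate 2 or 3. The median over the members was -0.60, against -0.11 over all genes, with a range of -1.01 to 0.62. The groups did not overlap for 33 members lower and 3 higher, against 43.0% and 32.0% of all genes. Cyclic loess normalization moved the median of all genes from -0.11 to 0.032, and that of the members to -0.50.

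The interaction asked whether the salt difference with LPS departed from the salt difference without it. It was negative and called for 32 of the 43 measured members and positive and called for 2, Ccne1 and Pcna, against 18.8% and 17.5% of all genes (36.3% in all). The median over the members was -0.39, against -0.032 over all genes, with a range of -0.80 to 0.20. Cdc6 (-0.80, SE 0.15, adjusted p = 0.00266), Pola1 (-0.77, SE 0.080, adjusted p = 1.04e-04) and Rfc3 (-0.77, SE 0.073, adjusted p = 5.84e-05) were lowest. For Cdc6 this depends on the probe, since another probe of the gene gave -0.29 (SE 0.0805, adjusted p = 0.0201). Cdt1, Mcm4, Gins4, Pola2, Pole2, Rfc2, Rpa1, Tyms and E2f1 were not called. The interaction draws on the HS + LPS arrays and so cannot be told apart from their slide and scan day. The count of 2 became 0 or 1 without any single array other than NS replicate 3. The calls of Ccne1, Pcna, Orc1, Orc6, Rrm2, Mcm3, Mcm6, Cdc45, Prim2 and Tk1 ended under at least 1 alternative, and 24 of the 34 held under every alternative run.

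**Figure D2:**
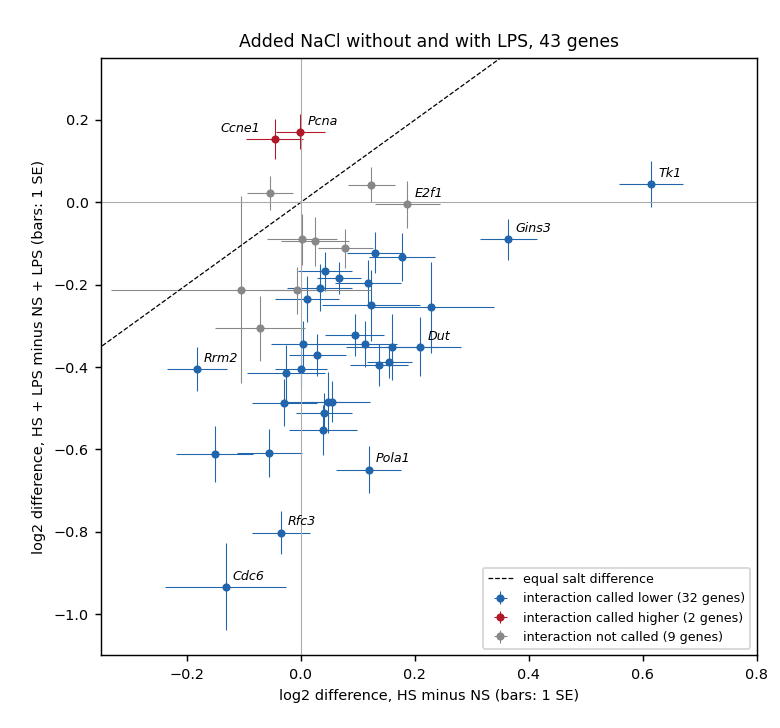
Log2 difference with added salt in each of the 43 measured genes, without LPS on the horizontal axis and with LPS on the vertical axis, with bars of 1 SE and the colour of the interaction call. Of the points, 32 called lower lie below the line of equal differences, and Ccne1 and Pcna lie above it.

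Origin recognition and licensing held the member with the lowest salt difference under LPS, Cdc6, beside 3 genes with smaller differences. Cdc6, the ATPase that brings the helicase to origins, had signals of 0.556, 0.487 and 0.565 in NS, 0.5299, 0.475 and 0.461 in HS, 0.584, 0.609 and 0.617 in NS + LPS and 0.264, 0.344 and 0.348 in HS + LPS. The 3 HS + LPS arrays were below all others. Its log2 difference with salt was -0.93 with LPS (SE 0.11, adjusted p = 4.79e-05) and -0.13 without LPS (adjusted p = 0.36). This holds for the brightest Cdc6 probe (chromosome 11, 98782986 to 98783045, mm9), and the other probe is described further on.

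Orc1, the large ATPase subunit of the origin recognition complex, had signals of 0.902, 0.811 and 0.933 in NS, 0.889, 0.856 and 0.918 in HS, 1.19, 1.17 and 1.11 in NS + LPS and 0.949, 0.9997 and 1.001 in HS + LPS. The NS + LPS arrays were the highest, the HS + LPS arrays lay between them and the rest, and NS and HS overlapped. The differences were 0.39 for LPS without added salt (adjusted p = 1.26e-04), 0.15 for LPS with added salt (adjusted p = 0.0373) and -0.23 for salt with LPS (SE 0.057, adjusted p = 0.00542). The call at 0.15 ended without HS replicate 1 (0.15) or 2 (0.12) and without HS + LPS replicate 2 (0.14) or 3 (0.13). Orc6, the small subunit of the same complex, fell with salt under LPS (-0.21). Cdt1, which works with Cdc6 in loading the helicase, fell with LPS in both media (-0.40 and -0.48) and had a salt difference with LPS of 0.043 (adjusted p = 0.406).

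All 6 subunits of the MCM ring had a negative interaction, which was called for 5 of them (18.8% of all genes). Their differences for LPS in salt medium were negative and called for all 6 (41.8% of all genes). Mcm5 had signals of 53.2, 50.5 and 47.5 in NS, 49.6, 51.3 and 50.1 in HS, 42.1, 40.3 and 41.5 in NS + LPS and 32.1, 30.8 and 30.6 in HS + LPS. NS and HS overlapped, every NS + LPS array was below them, and every HS + LPS array was lower still. Its salt difference was 0 without LPS (SE 0.045) and -0.41 with LPS (SE 0.045, adjusted p = 4.44e-05). Mcm2 had signals of 14.97, 14.4 and 14.5 in NS, 15.1, 14.7 and 14.2 in HS, 10.4, 10.2 and 10.6 in NS + LPS and 7.67, 8.94 and 7.995 in HS + LPS, with the same order of groups. Its differences were 0.003 for salt without LPS, -0.34 for salt with LPS and -0.49 for LPS without added salt (adjusted p = 1.76e-05). Mcm3 and Mcm7 fell with salt under LPS (-0.17 and -0.34), whereas Mcm4 (-0.11, adjusted p = 0.0688) and Mcm6 (-0.12, adjusted p = 0.0582) missed the threshold. Over all alternatives run, Mcm6 passed it in 6 of 16 and Mcm4 in 3 of 16. Those of Mcm6 included the fits without NS + LPS replicate 2 or HS + LPS replicate 2 (-0.16 in each case). Mcm6 was also the subunit with a difference near 0 for LPS without added salt (0.026, adjusted p = 0.676).

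The factors that turn the loaded ring into a moving helicase went apart under LPS alone, and 5 of the 6 fell when salt was added to LPS, where 31.4% of all genes fell. For LPS without added salt Mcm10, Cdc45 and Gins2 rose (0.41, 0.33 and 0.24) and Gins3 fell (-0.21). Gins1 had -0.16, a call that ended without any NS replicate (-0.15, -0.18 and -0.17) or NS + LPS replicate 2 or 3 (-0.15 and -0.16). Mcm10, which is needed to fire the assembled helicase, had signals of 21.5, 21.03 and 22.1 in NS, 20.4, 21.1 and 20.7 in HS, 29.9, 28.1 and 27.8 in NS + LPS and 18.6, 20.4 and 17.4 in HS + LPS. The NS + LPS arrays stood above all others and the HS + LPS arrays were the lowest, although HS + LPS replicate 2 overlapped the HS range. Its salt difference was -0.61 with LPS (adjusted p = 1.39e-05) and -0.055 without LPS (adjusted p = 0.495). Cdc45, Gins1, Gins2 and Gins4 fell with salt under LPS (-0.25, -0.55, -0.61 and -0.21), and the call of Cdc45 ended when NS + LPS replicate 1 (-0.24) or 2 (-0.24) was left out, and likewise HS + LPS replicate 1 (-0.23) or 3 (-0.21). Gins3 had signals of 16.8, 16.3 and 17.1 in NS, 21.1, 20.8 and 22.8 in HS, 15.0, 14.5 and 13.8 in NS + LPS and 12.9, 13.98 and 13.8 in HS + LPS. The HS arrays were above all others, and the groups with LPS were below the NS group. Its salt difference was 0.36 without LPS (SE 0.050, adjusted p = 3.48e-04) and -0.090 with LPS (adjusted p = 0.152), with an interaction of -0.45 (adjusted p = 0.00105).

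Among polymerases and primase, 5 of 7 genes fell with salt under LPS (31.4% of all genes), and 6 of 7 fell with LPS in salt medium (41.8% of all genes). Pola1, the catalytic subunit that extends the RNA primer, had signals of 5.41, 5.49 and 6.14 in NS, 6.04, 6.25 and 6.18 in HS, 5.02, 5.28 and 4.95 in NS + LPS and 3.27, 3.39 and 3.07 in HS + LPS. The HS + LPS arrays were below all others, and NS and HS overlapped. Added salt gave -0.65 with LPS (SE 0.057, adjusted p = 8.41e-06) and 0.12 without LPS (adjusted p = 0.13), and LPS in salt medium gave -0.93. Pole and Pole2, subunits of polymerase epsilon, fell with salt under LPS (-0.39 and -0.31), as did Pold1, the catalytic subunit of polymerase delta (-0.37), and the primase catalytic subunit Prim1 (-0.32). Prim2 (-0.26, adjusted p = 0.072) and Pola2 (-0.095, adjusted p = 0.199) were not called there. Prim2 was called without NS + LPS replicate 1 (-0.37) or HS + LPS replicate 3 (-0.33).

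With salt under LPS the clamp rose, while 4 of the 5 subunits of its loader fell (31.4% of all genes). PCNA is the ring that holds polymerases on DNA, and Pcna signals were 74.98, 72.4 and 70.4 in NS, 70.97, 70.7 and 76.1 in HS, 70.8, 69.2 and 67.9 in NS + LPS and 76.4, 77.8 and 79.9 in HS + LPS. The HS + LPS arrays were above every NS + LPS, NS and HS array. The salt difference with LPS was 0.17 (SE 0.043, adjusted p = 0.00643), and it was 0.059 (adjusted p = 0.293) with normexp background correction. Rfc3, a small subunit of the loader, had signals of 2.31, 2.45 and 2.53 in NS, 2.31, 2.43 and 2.38 in HS, 2.81, 2.65 and 2.61 in NS + LPS and 1.52, 1.63 and 1.48 in HS + LPS. The HS + LPS arrays were below all others and the NS + LPS arrays above all others. Its salt difference with LPS was -0.80 (SE 0.051, adjusted p = 1.18e-06), and without LPS it was -0.035 (adjusted p = 0.638). Rfc4, Rfc5 and Rfc1 fell with salt under LPS (-0.51, -0.39 and -0.18), whereas Rfc2 had -0.090 (adjusted p = 0.231), a difference called without HS + LPS replicate 2 (-0.15).

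In single-strand binding and Okazaki fragment joining, Rpa2, Fen1 and Lig1 fell with salt under LPS (-0.49, -0.35 and -0.20). Rpa2 is the middle subunit of the single-strand binding complex, Fen1 the flap nuclease that trims displaced primers, and Lig1 the ligase that seals the fragments. Their differences for LPS in salt medium were -0.83, -0.64 and -0.75, all called. The call of Lig1 for salt under LPS ended without NS + LPS replicate 3 (-0.16, adjusted p = 0.0549). Rpa1, the large subunit of the complex, was not called in any comparison by its brightest probe, with group means of 69.4 ± 1.32 (NS), 66.8 ± 2.19 (HS), 67.0 ± 1.27 (NS + LPS) and 68.0 ± 2.55 (HS + LPS) (SD, n = 3).

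Nucleotide supply held Tk1, which had the largest rise with salt alone, and Tyms and Dut, which had the lowest differences for LPS without and with added salt. Tk1 signals were 34.2, 32.1 and 31.4 in NS, 48.8, 48.2 and 52.6 in HS, 27.7, 25.5 and 26.7 in NS + LPS and 26.4, 29.04 and 26.9 in HS + LPS. The HS arrays were above all others, and the groups with LPS were below NS and overlapped each other. Salt without LPS gave 0.62 (SE 0.056, adjusted p = 2.71e-05), salt with LPS 0.045 (adjusted p = 0.515), and the interaction was -0.57 (adjusted p = 5.58e-04). With the mean of its probes, which includes a probe above background on 5 arrays, the Tk1 interaction was -0.14 (adjusted p = 0.426).

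Rrm2, which limits the supply of deoxynucleotides, had signals of 85.5, 80.5 and 78.4 in NS, 69.1, 72.6 and 73.4 in HS, 91.8, 88.5 and 90.02 in NS + LPS and 65.7, 73.03 and 65.7 in HS + LPS. The NS + LPS arrays were the highest and HS and HS + LPS overlapped below NS. Its salt difference was -0.18 without LPS (adjusted p = 0.0203) and -0.41 with LPS (adjusted p = 1.19e-04). Rrm1, the large subunit of the same enzyme, had 0.054 (adjusted p = 0.425) and -0.48 (adjusted p = 2.37e-05).

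Dut signals were 6.60, 5.96 and 6.21 in NS, 7.19, 7.14 and 7.36 in HS, 4.79, 4.51 and 4.45 in NS + LPS and 3.25, 4.01 and 3.55 in HS + LPS. HS was above NS, and both groups with LPS were lower, HS + LPS the lowest. Its salt difference was 0.21 without LPS (adjusted p = 0.0418) and -0.35 with LPS (adjusted p = 0.00205). The call at 0.21 ended without NS replicate 2 (0.18) or 3 (0.21) and without any HS replicate (0.21, 0.22 and 0.20). Tyms, which makes thymidylate, had signals of 0.365, 0.415 and 0.424 in NS, 0.371, 0.369 and 0.378 in HS, 0.213, 0.234 and 0.223 in NS + LPS and 0.1401, 0.165 and 0.309 in HS + LPS. The groups with LPS were below those without, and HS + LPS replicate 3 stood apart from the 2 others. Its salt difference with LPS was -0.21 (SE 0.23, adjusted p = 0.449), and -0.55 (adjusted p = 6.48e-04) without HS + LPS replicate 3, an array without which the interaction was -0.45 and was called.

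In chromatin assembly behind the fork, Uhrf1 and Chaf1b fell with salt under LPS (31.4% of all genes). All 3 members fell with LPS in either medium, where 35.2% of all genes fell without added salt and 41.8% with it. The call of Chaf1b without added salt ended without NS replicate 1 (-0.19) or 2 (-0.20) or NS + LPS replicate 2 (-0.18). Uhrf1, which reads hemimethylated DNA and recruits the maintenance methyltransferase, had signals of 52.4, 47.96 and 49.7 in NS, 46.3, 50.1 and 50.5 in HS, 40.5, 37.5 and 39.1 in NS + LPS and 27.3, 29.6 and 26.6 in HS + LPS. NS and HS overlapped, NS + LPS was lower and HS + LPS the lowest. Added salt gave -0.029 without LPS (adjusted p = 0.722) and -0.49 with LPS (SE 0.057, adjusted p = 6.00e-05). Chaf1b and Chaf1a are subunits of the histone chaperone CAF-1. Chaf1b had -0.42 (adjusted p = 5.32e-04) with salt under LPS and Chaf1a -0.13 (adjusted p = 0.075). Chaf1a was called there in 3 of 16 alternatives, among them the fit without NS + LPS replicate 1 (-0.17).

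Of the G1/S regulators, Ccne1 rose with salt under LPS and E2f1 was not called. E2f1, the transcription factor that drives S phase genes, had signals of 12.98, 12.3 and 11.99 in NS, 13.99, 14.1 and 14.3 in HS, 10.9, 10.5 and 11.5 in NS + LPS and 11.2, 11.5 and 10.1 in HS + LPS. HS was above every other group, and the groups with LPS were below NS and overlapped. Its differences were 0.19 for salt without LPS (adjusted p = 0.0255), -0.0050 for salt with LPS (SE 0.057, adjusted p = 0.949) and -0.18 for LPS without added salt (adjusted p = 0.0156). The call for salt ended when NS replicate 2 (0.18) or 3 (0.16) was left out, and likewise HS replicate 2 (0.19) or 3 (0.18), and the call for LPS without NS replicate 1 or NS + LPS replicate 2 (-0.15 in each case).

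Cyclin E1, the partner of CDK2 at the start of S phase, is coded by Ccne1, whose signals were 22.5, 21.0 and 20.7 in NS, 20.1, 20.9 and 21.2 in HS, 28.6, 28.1 and 29.1 in NS + LPS and 32.5, 33.1 and 29.97 in HS + LPS. The groups with LPS were above those without, and HS + LPS was above NS + LPS. Its differences were 0.42 for LPS without added salt (adjusted p = 2.89e-05), 0.62 for LPS with added salt (adjusted p = 1.18e-06) and 0.15 for salt with LPS (SE 0.050, adjusted p = 0.0222). The call for salt with LPS ended with normexp background correction (0.10, adjusted p = 0.114), without NS + LPS replicate 1 (0.16) or 2 (0.14), and without HS + LPS replicate 1 (0.14) or 2 (0.13). Ccne2, which codes for cyclin E2, was well above background on 0 of 12 arrays (chromosome 4, 11131423 to 11131482, mm9), with signals of 0.00756 to 0.0125, and was not tested.

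**Figure D3:**
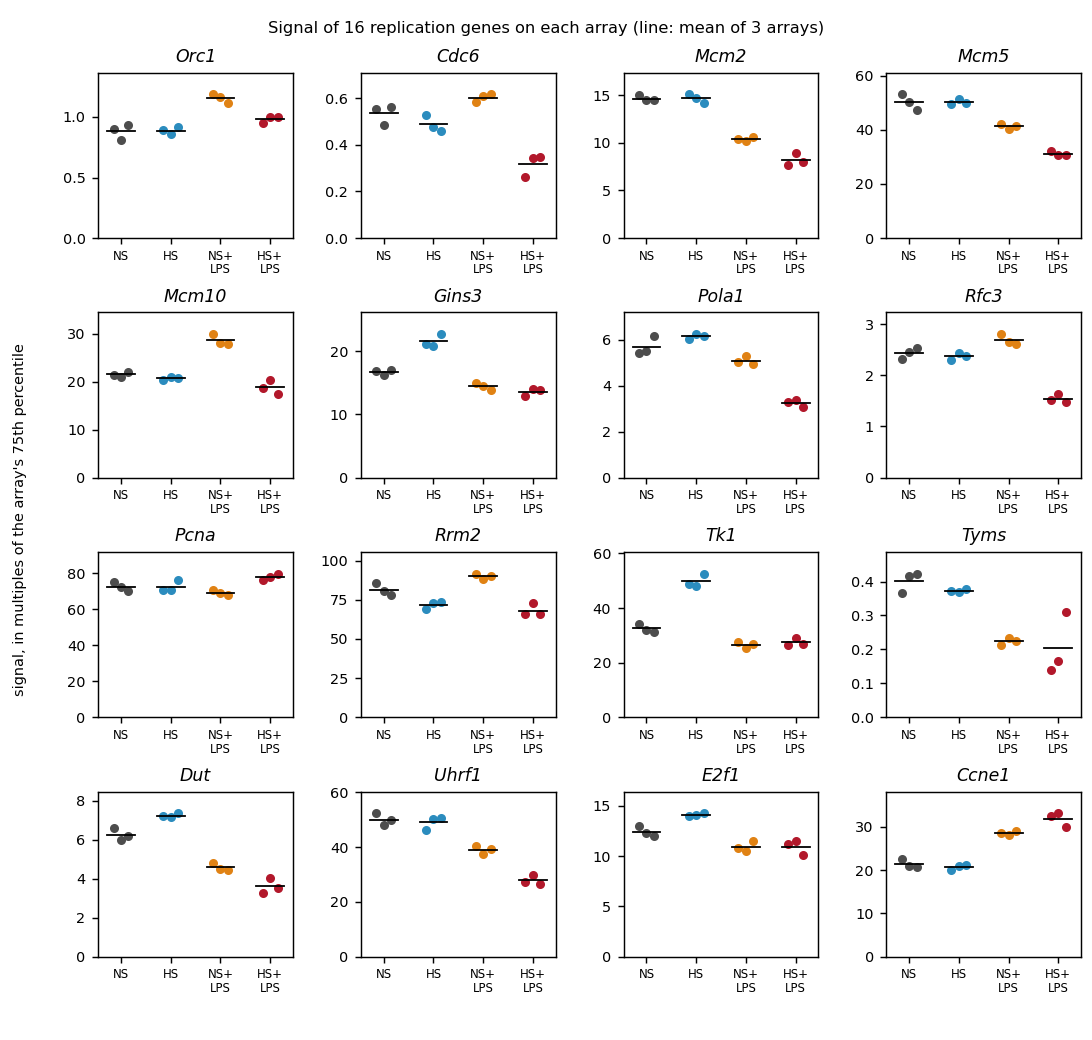
Signal of 16 replication genes on each of the 12 arrays, in multiples of the array's 75th percentile on a linear axis from 0, with 3 points per group and a line at their mean. Cdc6, Rfc3 and Pola1 have their lowest points in HS + LPS, Tk1 and Gins3 their highest in HS, and Pcna and Ccne1 their highest in HS + LPS.

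Other genes of the pathway, outside the 44, were grouped in 4 lists. Of 36 further replisome and licensing genes, 20 fell and 3 rose with salt under LPS (median -0.17), against 31.4% and 26.2% of all genes. Dscc1, a subunit of the alternative clamp loader that aids cohesion, fell by 0.95 on the log2 scale, and Gmnn, the Cdt1 inhibitor geminin, fell by 0.58. Pold4, the smallest subunit of polymerase delta, rose by 0.62 (SE 0.033), and Orc5 by 0.56. Orc5 also rose with salt without LPS (0.56), where 7 of the 36 rose and 4 fell (18.3% and 19.0% of all genes), among them Pold4 (-0.30). The interaction of Pold4 was 0.92 (adjusted p = 2.22e-06), the opposite sign to that of Pold1 (-0.40).

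The list of replication checkpoint and fork repair genes had a median close to that of the machinery. With salt under LPS 17 of 24 fell and 2 rose (median -0.30), against 31.4% and 26.2% of all genes, and with salt alone 6 of 24 rose, against 18.3%. Bard1, the BRCA1 partner, had a log2 difference of -0.72, the CDK-inhibiting kinase Wee1 -0.68 and the PCNA deubiquitinase Usp1 -0.67. The mismatch repair gene Msh6 rose with salt both without LPS (0.25) and with LPS (0.37). Of 22 measured genes of nucleotide and chromatin supply, 11 fell and 1 rose with salt under LPS (median -0.16, against the same 31.4% and 26.2%), with Nasp, a histone chaperone, at -0.66 and Paics, of purine synthesis, at 0.20.

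Of the G1/S cyclins, kinases, E2F and pocket proteins, 10 of 26 fell and 6 rose with salt under LPS, near the shares of all genes (31.4% and 26.2%), with a median of 0.032. The CDK inhibitor p21, coded by Cdkn1a, rose by 0.91 (SE 0.046, adjusted p = 2.99e-07), the pocket protein gene Rbl2 by 0.96 and the E2F partner Tfdp2 by 1.18. Ccna2, which codes for cyclin A2, fell by 0.68 and Fbxo5, an inhibitor of the anaphase-promoting complex, fell by 0.82. Cdkn1a also rose with LPS in both media, by 0.87 without added salt and 1.90 with it, and its interaction was 1.03 (adjusted p = 5.62e-06). For LPS in salt medium 29 of the 36 replisome genes, 18 of the 22 supply genes, 16 of the 26 G1/S genes and 20 of the 24 checkpoint genes fell, against 41.8% of all genes.

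**Figure D4:**
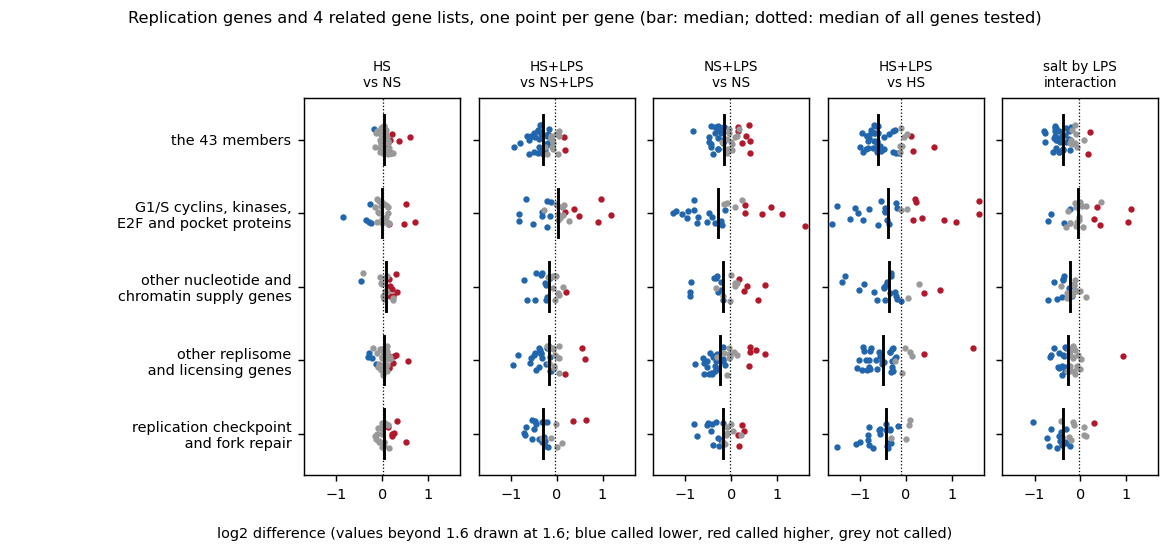
Log2 differences of the 43 replication genes and of 4 related lists in the 5 comparisons, with each gene as a point coloured by its call, a bar at the list's median and a dotted line at the median of all genes tested. With salt under LPS the bars of the machinery (-0.31) and of the checkpoint genes (-0.30) lie to the left of the line at -0.043, and that of the G1/S list (0.032) to its right.

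For 10 of the members another probe of the same gene also passed the filter, 11 such probes in all. They gave the same call as the brightest probe for 10 of 11 probes with salt alone and with LPS in salt medium, for 8 with LPS without added salt, for 6 with salt under LPS and for 9 in the interaction, and where calls differed 1 of the 2 probes was not called. Cdc6 was the case that bears most on the results. Its other probe (chromosome 11, 98785169 to 98785228, mm9) had signals of 0.6203, 0.646 and 0.651 in NS, 0.642, 0.619 and 0.645 in HS, 0.3005, 0.292 and 0.264 in NS + LPS and 0.223, 0.245 and 0.229 in HS + LPS. By that probe the level had already dropped with LPS without added salt (-1.17, SE 0.057, adjusted p = 3.04e-08, against 0.17 by the brightest), and the salt difference with LPS was -0.30 (adjusted p = 0.00146) against -0.93. Both probes were called lower with salt under LPS.

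Rpa1 was not called anywhere by its brightest probe (chromosome 11, 75113898 to 75113957, mm9), whereas the probe next to it (75114060 to 75114119) had signals of 18.2, 17.8 and 18.1 in NS, 17.7, 18.5 and 18.8 in HS, 6.65, 6.68 and 6.58 in NS + LPS and 4.97, 5.47 and 5.27 in HS + LPS. By the second probe Rpa1 fell with LPS without added salt (-1.44) and with it (-1.81), and with salt under LPS (-0.34, adjusted p = 1.07e-04). The other probe of Dut had a salt difference without LPS of 0.61 and with LPS of -0.30 (adjusted p = 0.0635), and that of Pole had 0.060 (adjusted p = 0.545) for LPS without added salt where the brightest had -0.26. For salt with LPS, where the brightest Tk1 probe was not called, a second probe above background on all 12 arrays gave 0.17 (adjusted p = 0.0431). The dimmest Tk1 probe, above background on 5 arrays, gave 1.05 (adjusted p = 0.00276). Which transcript each probe reports was not analysed here.

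**Figure D5:**
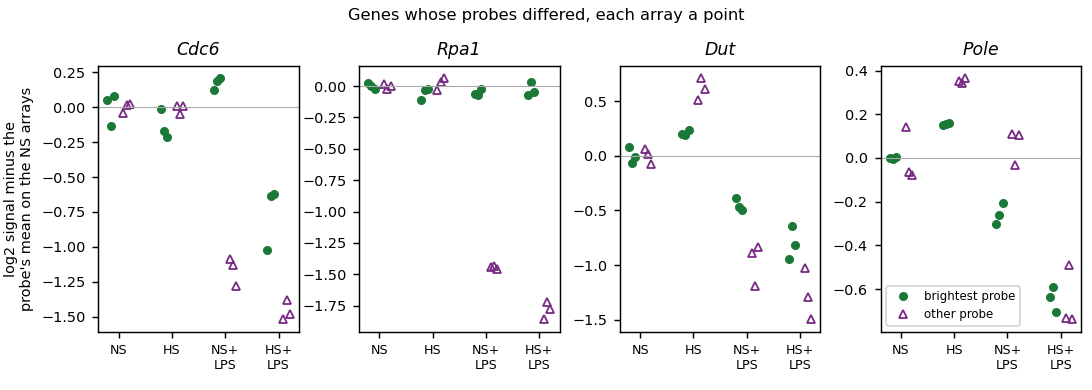
Log2 signal of both probes of Cdc6, Rpa1, Dut and Pole on each array, minus the probe's own mean on the NS arrays, with filled circles for the brightest probe and open triangles for the other. For Rpa1 the triangles drop with LPS while the circles stay near 0, and for Cdc6 the triangles have dropped in NS + LPS (-1.17) where the circles have not (0.17).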

How the data were processed

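RNA levels were measured on 12 Agilent 1-colour mouse arrays (design 028005), 3 for each of 4 groups named in the sample titles. Per the file headers, the deposited scanner values are linear intensity, background-subtracted and detrended by Feature Extraction 10.7.3.1, while the deposited spot flags (outlier, saturated, above background) are of other kind, 0 or 1. The deposited value table holds linear intensity with a median of 28.8 in every column and ranks that follow the scanner values (Spearman at least 0.99996). Quantile normalization is inferred from this and not stated.

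The log2 processed signal was centred on each array's 75th percentile over 59305 non-control spots. Outlier spots were left out and repeated spots averaged to 55681 probes, 22706 of them without a gene symbol. The filter kept 18705 named probes, each with all 3 arrays of some group well above background, and the brightest stood for each of 13736 genes. Probe coordinates are on mm9. Linear models over all 12 arrays (8 residual degrees of freedom) were fitted with limma 3.58.1 in R 4.3.3, with 2-sided moderated tests adjusted by Benjamini-Hochberg over all genes. On simulated data for HS against NS, with 200 of 13736 genes changed, 72% of log2 changes of 0.5 and 92% of changes of 1 were recovered, with 5 false calls. In the data themselves 37.3% of genes were called for HS against NS, a far larger share than was changed in the simulation. Changes below 0.5 were not simulated, so the recovery of differences of that size was not measured. Precision is limited by the number of arrays. The members and lists were chosen with earlier results of these data known. Arrays are described in full for 10 members fixed by name and for the largest called differences of each comparison, and at most 3 genes of each further list are named per comparison, although results for some genes are not reported here. Alternatives were normexp background correction (offset 50), quantile and cyclic loess normalization, the deposited table, the filter, the probe rule, the variance model, the arrays fitted, replicate and slide blocks and leaving out each array; other probes were added after seeing the data. Motifs were searched in RefSeq promoters with Python 3.11.15, and figures drawn with matplotlib 3.10.9.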

Additional observations from a re-analysis of the deposited data

Results flagged for a closer look

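The salt difference with LPS departed from the salt difference without it, by limma's test of the interaction, in 34 replication genes (adjusted p under 0.05 over 13736 genes, against 36.3% of all genes in either direction). Each value below is the log2 salt difference with LPS minus that without. In origin recognition and licensing it was -0.25 for Orc1, -0.24 for Orc6 and -0.80 for Cdc6 (-0.29 by the other Cdc6 probe). In the helicase and its activators it was -0.35 for Mcm2, -0.21 for Mcm3, -0.41 for Mcm5, -0.25 for Mcm6 and -0.46 for Mcm7, then -0.56 for Mcm10, -0.37 for Cdc45, -0.59 for Gins1, -0.46 for Gins2 and -0.45 for Gins3.

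Among polymerases and primase the value was -0.77 for Pola1, -0.42 for Prim1, -0.48 for Prim2, -0.54 for Pole and -0.40 for Pold1. For the clamp and its loader it was 0.17 for Pcna, -0.25 for Rfc1, -0.77 for Rfc3, -0.55 for Rfc4 and -0.53 for Rfc5. For single-strand binding and fragment joining it was -0.53 for Rpa2, -0.51 for Fen1 and -0.32 for Lig1. Nucleotide supply gave -0.54 for Rrm1, -0.22 for Rrm2, -0.57 for Tk1 and -0.56 for Dut. Chromatin assembly gave -0.46 for Uhrf1, -0.31 for Chaf1a and -0.39 for Chaf1b, and Ccne1 gave 0.20. Adjusted p-values ran from 5.84e-05 for Rfc3 to 0.048 for Pcna. All of these draw on the HS + LPS arrays, whose slide and scan day were their own.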

How the results depend on the processing

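For added salt without LPS, the count of higher members (7) was 4 with cyclic loess and 3 with no filter on dim probes, and 3 to 7 when each array was left out. The lower count (1) was 3, 0 and 0 to 1 in the same settings. For salt with LPS the higher count (2) was 0 with normexp, 1 with no filter and 1 to 2 when an array was left out, while the lower count (29) lay between 28 and 32 over all settings run. For LPS in salt medium the higher count (3) was 1 with no filter, 1 with the replicate block and 1 to 3 when an array was left out, and the median (-0.60) was -0.50 with cyclic loess. For the interaction the higher count (2) was 0 with normexp, 0 with no filter, 1 with the mean of a gene's probes, 0 with the replicate block and 0 to 2 when an array was left out, and its median (-0.39) was -0.30 with quantile normalization and -0.30 with the deposited table. The cause of these changes was not tested, except that no filter adds genes to the adjustment and leaving out an array removes a sample. The shares of all genes called in these settings are not given here, so the counts show only how the calls of members moved.

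Among differences called by at least 1 of the settings compared, the signs that turned were those of Rpa1, Cdc6, Pcna, Pole, Tk1, Tyms and Cdt1. Over the alternatives Tyms ran from -0.55 to 0.018 for salt with LPS and from -0.45 to 0.12 for the interaction. Cdt1 ran from -0.015 to 0.12 for salt with LPS. Uncalled differences of other members also changed sign, and the median for salt without LPS (0.041) was -0.001 with cyclic loess. With the mean of its probes Rpa1 had -0.16 for salt with LPS and -0.89 for LPS in salt medium, and Cdc6 had -0.50 for LPS without added salt. Pcna had -0.0060 for LPS in salt medium with normexp. By the other probe alone Cdc6 had -1.17 and Pole 0.060 for LPS without added salt. Rpa1 by its other probe had -1.81 for LPS in salt medium, -0.34 for salt with LPS and -0.37 for the interaction. A second Tk1 probe above background on all 12 arrays had -0.42 for the interaction (adjusted p = 0.00559), the sign of the brightest. Only the dimmest Tk1 probe, above background on 5 arrays, turned the sign, at 0.56 (adjusted p = 0.2, not called).

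Replicate numbers did not pair the samples, with correlations of same-numbered deviations from -0.08 to 0.121. With the replicate block the higher and lower counts were 5 and 1 for HS against NS, 2 and 29 for HS + LPS against NS + LPS, 6 and 21 for LPS without added salt, 1 and 33 for LPS in salt medium and 0 and 28 for the interaction. The shares of all genes called with this block are not given here either. Of the called members 2 of 8, 26 of 31, 21 of 30, 33 of 37 and 24 of 34 kept their call under every alternative run, in the same order of comparisons. Of the members not called, 6 of 35, 10 of 12, 9 of 13, 4 of 6 and 5 of 9 were called under at least 1 alternative, again in that order. No slide block could be fitted for comparisons with HS + LPS.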
